A study of Mus musculus with 16 samples.

Results

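The 10 genes described here encode the enzymes that carry mannose phosphates to GDP-mannose and GDP-fucose, and those that build UDP-N-acetylglucosamine. They were chosen by symbol, as Mpi, Pmm1, Pmm2, Gmppa, Gmppb, Gmds, Gfpt1, Gnpnat1, Pgm3 and Uap1. All 10 were found, each as 1 entry, among the 53112 gene symbols of the tumour tables and the 55290 of the CD8 tables. All 10 passed the filter on low values, which kept a gene with at least 1 TPM (a share of transcripts, adjusted for their length) in 5 tumour or 3 CD8 libraries.

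The study sequenced RNA from mouse tumours of HM1, an ovarian cancer line, with or without mannose supplementation. For whole tumours there are 5 libraries of the control and 5 of the mannose group. CD8+ T cells sorted from HM1 tumours gave 3 control and 3 mannose libraries. The labels name no strain, sex, age, genotype, mannose dose or duration, and they do not say whether these animals also received the anti-PD-1 antibody that the series title names. They also do not state whether libraries came from separate animals, so the p-values below measure only the spread between these samples, which may be technical. The deposited TPM summed to between 993815 and 997809 in each library, and 12345 to 14384 symbols were at 1 TPM or more; the read depth behind them is unknown.

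Some properties of the CD8 libraries bear on every result from them. In the 3 tables labelled CD8 control, the column of values carries a mannose name; groups here follow the sample labels, and each direction in CD8 cells rests on those labels. Across 35 T cell receptor beta V segments, the TPM of control libraries 1 and 2 correlated at r = 0.999, against 0.298 and 0.309 for the pairs with library 3. Mannose libraries 1 and 2 likewise correlated at 0.995, against 0.546 and 0.529. The labels do not say whether such a pair came from the same animal, so the CD8 calls are also given with the 2 libraries of each pair averaged to 1. All 8 T cell markers were at 1 TPM or more in all 6 CD8 libraries, but so were all 9 macrophage markers. Summed T cell markers ranged from 4466 to 4860 TPM in the control and from 2352 to 4533 in the mannose libraries. Summed macrophage markers ranged from 3929 to 4246 TPM in the control and from 1100 to 1475 in the mannose libraries, and 8 carcinoma epithelium markers from 237 to 530 and from 1608 to 2459. The 7 fibroblast markers summed to between 46.2 and 136 TPM in the control and to between 247 and 387 in the mannose libraries. The part these other cells have in the results below was not tested. Scaling libraries to their T cell markers divides all genes of a library by 1 factor, so it cannot separate the RNA of other cells. In bulk RNA, fewer cells of a type and less RNA per cell cannot be told apart.

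**Figure D1:**
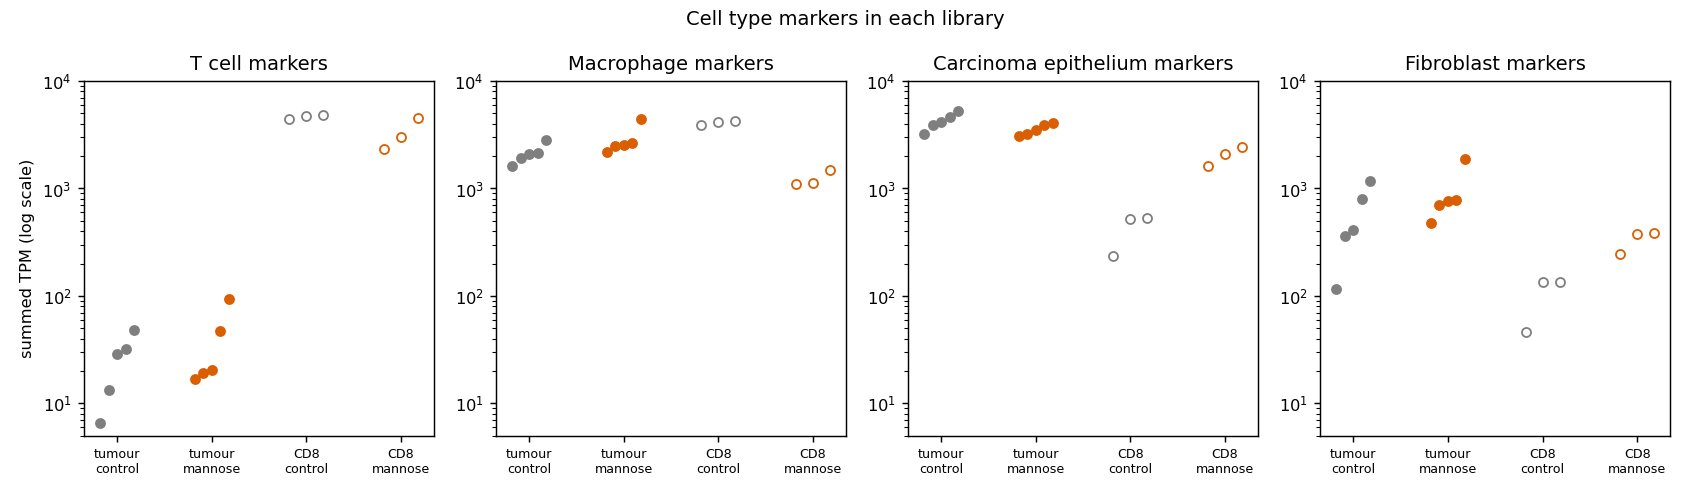
Summed TPM (log axis) of marker gene lists in each library, with 1 point per library, by tissue and treatment group. In CD8 libraries the macrophage sum was 3929 to 4246 TPM in controls and 1100 to 1475 with mannose, while the carcinoma sum was 237 to 530 and 1608 to 2459.

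Mannose enters cells through hexose transporters and is phosphorylated by hexokinase to mannose-6-phosphate. MPI interconverts this with fructose-6-phosphate and so links mannose to glycolysis; the phosphomannomutases PMM1 and PMM2 turn it instead towards mannose-1-phosphate, from which GMPPB, with the regulatory subunit GMPPA, makes GDP-mannose, and GMDS starts the conversion of GDP-mannose to GDP-fucose. In the hexosamine pathway GFPT1 takes fructose-6-phosphate, and GNPNAT1, PGM3 and UAP1 carry the product to UDP-N-acetylglucosamine, the sugar donor for N-glycans and O-GlcNAc; activated T cells are known to draw on this pathway.

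The promoters of Gfpt1 and Uap1, the first and last enzymes of the hexosamine branch, and of Pmm1 are shown because these 3 members gave the differences on which the results turn. Each is the 250 bases before the start of transcription, 5′ to 3′ on the gene's strand, from RefSeq on GRCm38.p6, whose coordinates differ from those of the GRCm39 build named for the expression values. Promoters of 8 of the 10 members were matched; those of Gmppb and Gnpnat1 were not. Gfpt1 lies on the plus strand at chr6:87042596-87042845, Uap1 on the minus strand at chr1:170174965-170175214 and Pmm1 on the minus strand at chr15:81960931-81961180. Capitals mark matches, on either strand, to CCAAT (bound by NF-Y), ACGTG (the core shared by E-boxes and hypoxia response elements) and TGACG (the CRE core). A match is a description of letters and not of a site in use.

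Gfpt1: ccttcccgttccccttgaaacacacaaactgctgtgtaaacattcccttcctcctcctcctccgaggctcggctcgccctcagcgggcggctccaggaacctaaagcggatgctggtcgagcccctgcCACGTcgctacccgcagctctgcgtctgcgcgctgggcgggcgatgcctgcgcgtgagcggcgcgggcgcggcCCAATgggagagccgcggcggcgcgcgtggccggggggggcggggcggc
Uap1: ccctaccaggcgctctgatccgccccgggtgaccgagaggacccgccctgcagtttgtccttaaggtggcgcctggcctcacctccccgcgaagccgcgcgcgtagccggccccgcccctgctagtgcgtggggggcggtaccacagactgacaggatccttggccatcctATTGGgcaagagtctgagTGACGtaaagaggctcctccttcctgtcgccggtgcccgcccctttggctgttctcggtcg
Pmm1: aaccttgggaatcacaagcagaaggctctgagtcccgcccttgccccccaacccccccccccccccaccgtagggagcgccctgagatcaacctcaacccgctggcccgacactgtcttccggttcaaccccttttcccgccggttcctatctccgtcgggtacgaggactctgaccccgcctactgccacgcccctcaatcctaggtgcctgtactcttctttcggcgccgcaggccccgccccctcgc

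In Gfpt1, CCAAT begins 49 bases before the start and ACGTG, on the minus strand, 122 bases before it. In Uap1, CCAAT, on the minus strand, begins 79 bases and TGACG 61 bases before the start. The Pmm1 window held none of these letters. Among all 32851 promoters of the same length, 33.9% held CCAAT, 16.6% ACGTG and 17.8% TGACG, against 4, 2 and 3 of the 8 matched members. The motif of NRF1 was in 0.782% of promoters and in 1 member, Pmm2.

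In whole tumours, no member passed the test between mannose and control. The comparison asked whether mannose supplementation changed the enzymes that handle mannose in tumour tissue. None of the 10 was called by limma on log2(TPM + 1) at an adjusted p under 0.05, none had an unadjusted p under 0.05 and none had groups that did not overlap. The background was the same: 0% of 13282 genes tested were called, while 6.23% had an unadjusted p under 0.05 and 1.63% had groups that did not overlap, 1.51% higher and 0.128% lower with mannose. The difference was above 0 in 7 members and below 0 in 3, and its median was 0.10 on the log2 scale, beside 0.12 over all genes tested. That median over all genes moved to -0.005 with quantile normalization and to 0.02 with median-ratio scaling, where the median of the members was -0.05 and -0.004. Under these 2 scalings 6 members kept their sign, while Mpi and Gnpnat1 turned in both and Gmppb and Pgm3 with quantile normalization.

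Mpi, the entry point between mannose and glycolysis, was at 9.71, 12.4, 19.8, 11.5 and 13.95 TPM in the 5 control tumours and at 14.9, 14.9, 13.5, 13.3 and 13.4 TPM in the 5 mannose tumours. The mannose libraries lay within the range of the controls, which spread more widely. The log2 difference was 0.09, with a 95% interval from -0.27 to 0.45 (adjusted p = 0.897, limma).

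Pmm1, a phosphomannomutase, was at 28.4, 33.7, 31.4, 26.2 and 28.9 TPM in control tumours and at 23.5, 28.6, 27.0, 28.9 and 20.8 TPM in mannose tumours. The groups overlapped, and the log2 difference of -0.20 had an interval from -0.47 to 0.06 (adjusted p = 0.754, limma). Pmm2, the phosphomannomutase whose loss causes the commonest congenital disorder of glycosylation, was at 19.5 ± 3.85 TPM (SD, n = 5) without mannose and 21.9 ± 3.24 TPM (SD, n = 5) with it, and its log2 difference of 0.17 had an interval from -0.17 to 0.52.

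Gmppb, the catalytic GDP-mannose pyrophosphorylase, was at 10.4, 23.5, 24.9, 9.26 and 10.2 TPM in control and at 23.1, 13.9, 22.3, 10.2 and 12.8 TPM in mannose tumours. It was high, above 22 TPM, in 2 libraries of each group and below 14 TPM in the other 3. Its log2 difference of 0.12 had the widest interval of the 10, from -0.57 to 0.82. Gmppa, which restrains that enzyme, was at 34.7 ± 6.85 TPM without mannose and 31.1 ± 2.50 TPM with it (SD, n = 5 for both); the log2 difference was -0.14 with an interval from -0.44 to 0.16.

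Gmds, the first enzyme towards GDP-fucose, was the least abundant member in tumours, at 0.92, 3.68, 2.75, 3.54 and 3.66 TPM in control and 1.69, 2.03, 5.31, 1.96 and 3.41 TPM in mannose libraries. The ranges overlapped throughout, with a log2 difference of -0.02 and an interval from -0.68 to 0.64.

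In the hexosamine branch, Gfpt1, the rate-limiting first enzyme, was at 11.9, 27.3, 29.9, 30.9 and 38.4 TPM in control and at 34.7, 30.6, 31.7, 28.9 and 22.1 TPM in mannose tumours. Control 1 was far below the other 9 libraries. The log2 difference of 0.17, with an interval from -0.40 to 0.74, was -0.10 without that library. Uap1, the last enzyme, was at 25.8, 34.2, 34.6, 37.6 and 31.4 TPM in control and at 34.2, 38.7, 35.0, 36.4 and 41.7 TPM in mannose tumours, a log2 difference of 0.19 with an interval from -0.07 to 0.44 (adjusted p = 0.754, limma). The acetyltransferase Gnpnat1, at 9.28 ± 1.29 and 9.64 ± 1.22 TPM, and the mutase Pgm3, at 12.2 ± 2.58 and 13.2 ± 2.42 TPM (SD, n = 5 each), differed by 0.05 and 0.11 on the log2 scale. Control 1 was the lowest of the 10 tumour libraries for 6 members, Mpi, Pmm2, Gmds, Gfpt1, Pgm3 and Uap1, and its 10 members summed to 149 TPM, against 186 to 229 TPM in the other libraries. That library also had the fewest symbols at 1 TPM or more (12345). Its summed markers were the lowest for T cells (6.60 TPM), macrophages (1636), fibroblasts (117), endothelium (19.2), dendritic cells (2.80) and CD4 and regulatory T cells (2.59). They were the highest for neutrophils (227), and within the range of the others for carcinoma epithelium, B cells and muscle. A link to the members was not tested.

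**Figure D2:**
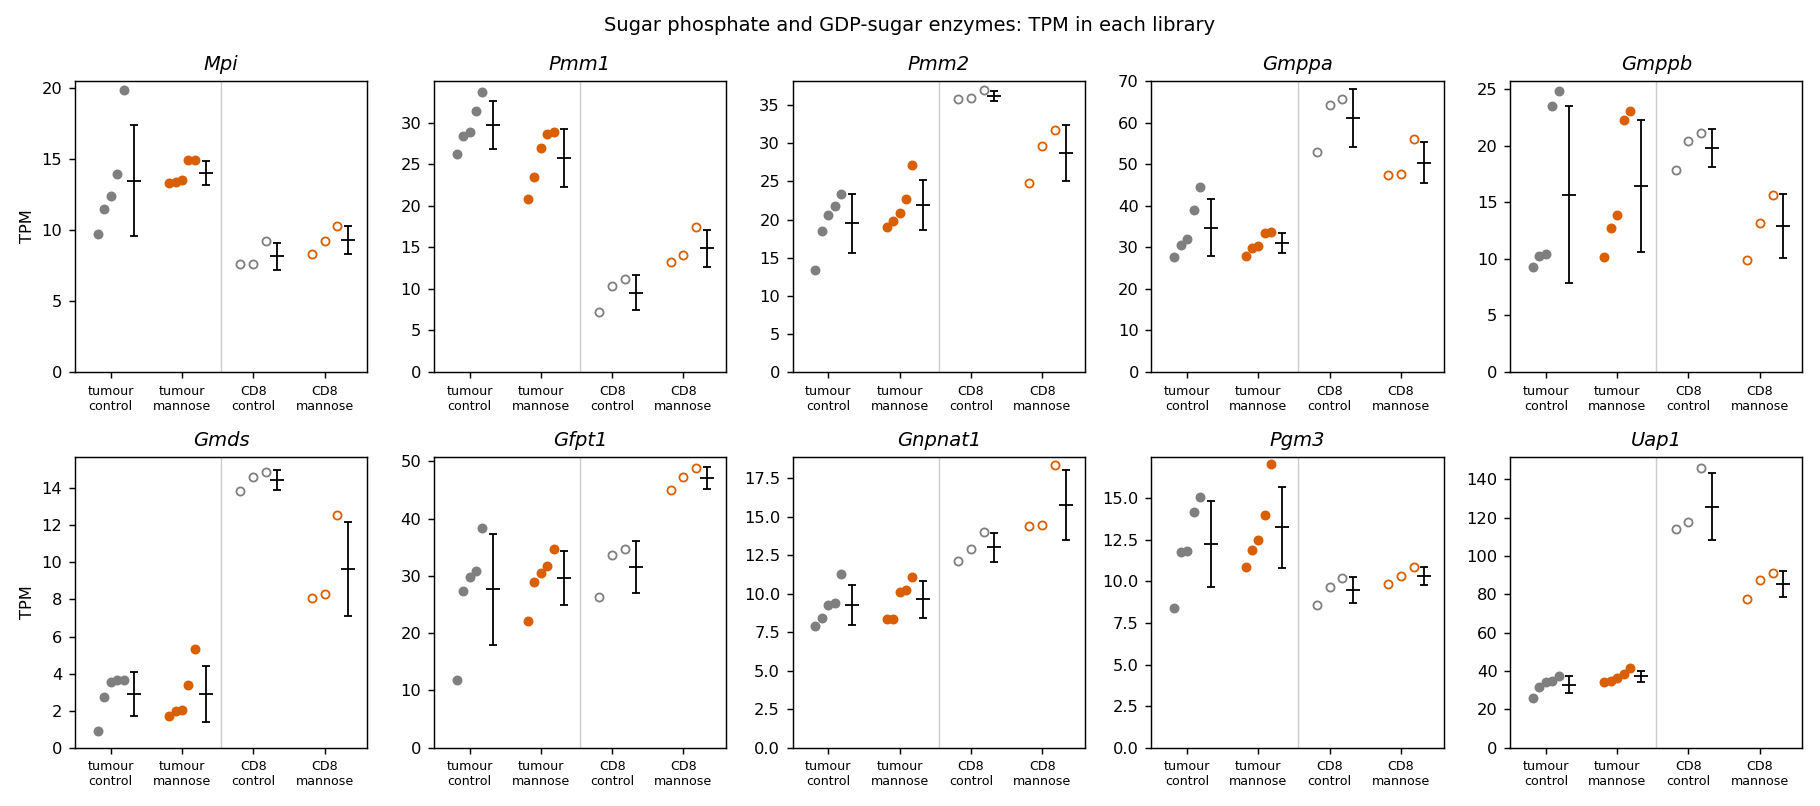
TPM of each of the 10 members (linear axis) in each library, with 1 point per library and a bar at the group mean with its SD, for tumour and CD8 groups. Tumour groups overlapped for all 10 members; CD8 groups did not overlap for 7, among them Uap1, at 114 to 146 TPM in controls and 77.8 to 91.0 with mannose.

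In CD8 cells 5 of the 10 members passed the test: Gfpt1 and Pmm1 were higher, and Uap1, Gmppb and Gmds lower, in libraries labelled mannose. The background was large: 34.9% of 14280 genes tested were called, 23.2% higher and 11.7% lower, so that a call was a common event in this comparison. Groups did not overlap for 7 members, 3 higher and 4 lower, beside 51.4% of all genes, 33.3% higher and 18.1% lower. An unadjusted p under 0.05 was found for 6 members and for 46.3% of all genes. The median log2 difference was -0.08 over the members and 0.09 over all genes tested. With the like pairs averaged, limma called 0 of the 10 members, with 4 at an unadjusted p under 0.05, beside 11.4% of all genes called. With each library scaled to its T cell markers, it called 2 higher and 0 lower, beside 31.2% of all genes; that scaling put the median of all genes at 0.59. Quantile normalization gave 1 higher and 4 lower, and median-ratio scaling 1 higher and 5 lower. Over all genes the split was 3306 higher and 1674 lower in the main scaling, 2731 and 2328 with median-ratio scaling, 2673 and 2305 with quantile normalization and 4016 and 407 after T cell marker scaling.

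Gfpt1 was at 34.7, 33.7 and 26.4 TPM in CD8 controls and at 48.9, 47.2 and 45.0 TPM with mannose. All 3 mannose libraries lay above all 3 controls. The log2 difference was 0.57 ± 0.12 (SE), with a 95% interval from 0.28 to 0.86 (adjusted p = 0.0122, limma). It was 1.11 with T cell marker scaling (adjusted p = 0.0199), the adjusted p was 0.0515 without mannose 2, 0.0791 with like pairs averaged and 0.179 with all 16 libraries in 1 fit, and the direction was the same in every alternative run.

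Uap1, at the other end of the same branch, was at 118, 114 and 146 TPM in controls and at 77.8, 87.6 and 91.0 TPM with mannose. Every mannose library lay below every control. The log2 difference was -0.55 ± 0.12 (SE), with an interval from -0.83 to -0.27 (adjusted p = 0.0128, limma), and the call was kept without any 1 library (adjusted p from 0.0152 to 0.0481). The adjusted p was 0.0747 with like pairs averaged. Scaled to T cell markers, the difference was 0.003 (adjusted p = 0.992), so relative to those markers no lower level was measured.

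The middle enzymes of the branch did not pass the test. Gnpnat1 was at 12.9, 14.04 and 12.2 TPM in controls and at 14.5, 18.4 and 14.4 TPM with mannose, without overlap. Its log2 difference was 0.25 with an interval from -0.06 to 0.57 (adjusted p = 0.184, limma). It passed with array weights (0.0126), a setting that called 60.4% of all genes. Pgm3 was at 10.2, 8.60 and 9.64 TPM in controls and at 10.9, 9.81 and 10.3 TPM with mannose, a log2 difference of 0.11 with an interval from -0.17 to 0.40. The annotated spans of Gnpnat1 and Styx, and of Pgm3 and Dop1a, overlap on opposite strands in GENCODE M21. So do those of Pmm2 with Carhsp1 and of Gmppb with Rnf123. These spans include introns, and the overlap of exons was not computed. Reads from any shared exon sequence may not be told apart if the counting did not use strand. The sources used here do not state whether it did.

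The phosphomannomutases differed in direction. Pmm1 was at 10.3, 11.2 and 7.17 TPM in CD8 controls and at 17.4, 13.2 and 14.04 TPM with mannose, with all mannose libraries above the controls. Its log2 difference was 0.60 ± 0.19 (SE), with an interval from 0.16 to 1.05 (adjusted p = 0.0456, limma). That call did not survive leaving out any 1 of the 6 libraries (adjusted p from 0.0550 without control 2 to 0.142 without mannose 1, with 0.0781 without control 1, 0.0916 without control 3, 0.0856 without mannose 2 and 0.0652 without mannose 3), and the adjusted p was 0.123 with like pairs averaged, 0.114 with quantile normalization, 0.0658 with median-ratio scaling and 0.0942 with no filter on low values. Pmm2 was at 37.0, 35.9 and 35.8 TPM in controls and at 29.6, 24.7 and 31.8 TPM with mannose, with all mannose libraries below the controls. Its log2 difference of -0.33, with an interval from -0.60 to -0.07, missed the threshold (adjusted p = 0.0573, limma). It passed with median-ratio scaling (0.0228), quantile normalization (0.0247) and array weights (0.00136), and without mannose 3 (0.0263), where 41.4% of all genes were called. Its adjusted p was 0.238 with like pairs averaged, and the difference turned to 0.21 with T cell marker scaling. Mpi was at 9.23, 7.61 and 7.58 TPM in controls and at 9.23, 8.28 and 10.3 TPM with mannose, and its groups overlapped. Its log2 difference was 0.17 with an interval from -0.16 to 0.50 (adjusted p = 0.393, limma).

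The enzyme that makes GDP-mannose and the enzyme that starts its conversion to GDP-fucose were lower with mannose. Gmppb was at 17.9, 20.4 and 21.1 TPM in CD8 controls and at 15.6, 9.93 and 13.2 TPM with mannose, without overlap. The log2 difference was -0.60 ± 0.17 (SE), with an interval from -1.003 to -0.19 (adjusted p = 0.0341, limma). The adjusted p was above the threshold without control 1 (0.0584), control 2 (0.101), control 3 (0.0962), mannose 2 (0.0882) or mannose 3 (0.0520), with like pairs averaged (0.0701), with no filter on low values (0.0710), under the replicate block (0.0546) and with all 16 libraries in 1 fit (0.263). Gmds was at 13.8, 14.6 and 14.9 TPM in controls and at 8.09, 8.30 and 12.5 TPM with mannose, again without overlap. The log2 difference was -0.56 ± 0.18 (SE), with an interval from -0.98 to -0.15 (adjusted p = 0.0450, limma). That call was lost without control 1 (0.0922), control 2 (0.118), control 3 (0.109), mannose 1 (0.136) or mannose 2 (0.149), with like pairs averaged (0.236), with no filter (0.0912) and with all 16 libraries in 1 fit (0.264). With T cell marker scaling the differences were -0.07 for Gmppb and -0.05 for Gmds, neither called. Gmppa, at 65.7, 53.0 and 64.4 TPM in controls and 47.4, 47.8 and 56.1 TPM with mannose, overlapped between groups, with a log2 difference of -0.27 and an interval from -0.55 to 0.01 (adjusted p = 0.119, limma); it passed with median-ratio scaling (0.0478) and array weights (0.0366).

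The difference between tissues was tested itself, as the mannose effect in CD8 libraries minus that in tumours. It was called for 2 of the 10 members, beside 18.7% of 15498 genes tested, 11% higher and 7.64% lower; 3 members and 31.2% of all genes had an unadjusted p under 0.05. Pmm1 was higher in this contrast by 0.81 on the log2 scale, with an interval from 0.35 to 1.27 (adjusted p = 0.0162, limma), from -0.20 in tumours and 0.60 in CD8 cells. The call on Pmm1 was lost without CD8 control 3 (0.0549) or CD8 mannose 1 (0.0618). With like pairs averaged the adjusted p was 0.0324 for Pmm1 and 0.0335 for Uap1. Uap1 gave -0.73, with an interval from -1.11 to -0.36 (adjusted p = 0.00890, limma). It was kept without any 1 library, and was -0.18 (adjusted p = 0.586) with T cell marker scaling. Gfpt1, called in CD8 cells and not in tumours, gave 0.40 (adjusted p = 0.521, limma), so its effect was not shown to differ between tissues. Its adjusted p was 0.0270 without tumour control 1, 0.0296 without tumour control 1 and mannose 3 together, 0.0265 with array weights and 0.644 with like pairs averaged. Gmppb (-0.72, adjusted p = 0.319) and Gmds (-0.54, adjusted p = 0.443) were not called either. Pmm2, also at an unadjusted p under 0.05, gave -0.51 (adjusted p = 0.139, limma). It was called with quantile normalization (0.0301), median-ratio scaling (0.0310) and array weights (0.00599). With like pairs averaged its adjusted p was 0.349, and with T cell marker scaling the value was 0.033.

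**Figure D3:**
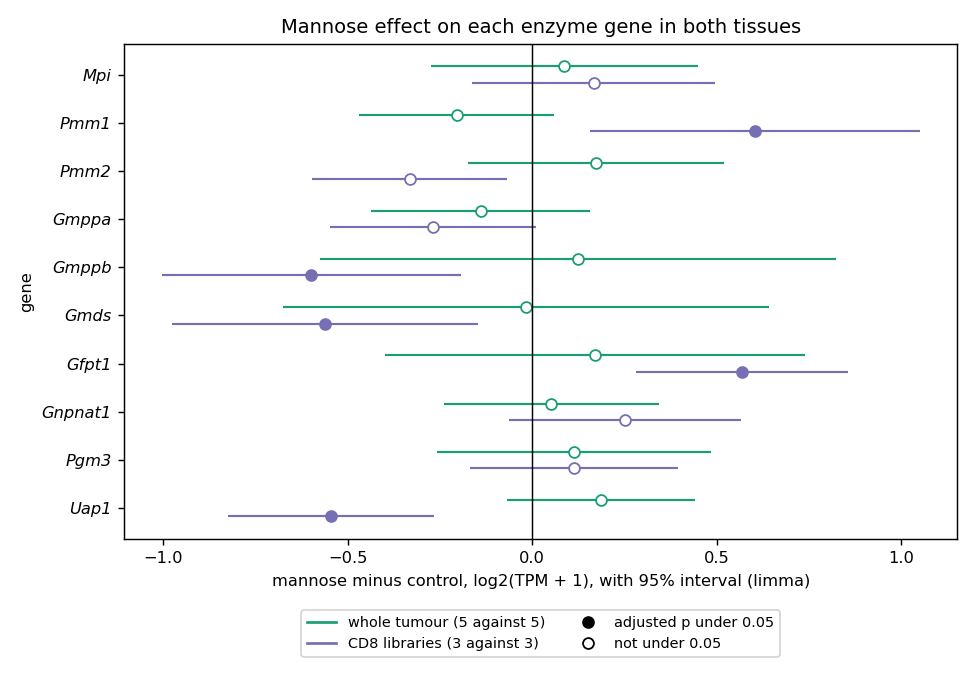
Log2 difference, mannose minus control, of each member in tumours and in CD8 cells, with 95% intervals from limma. All 10 tumour intervals include 0; in CD8 cells Gfpt1 (0.57) and Pmm1 (0.60) lie above 0 and Uap1 (-0.55), Gmppb (-0.60), Gmds (-0.56) and Pmm2 (-0.33, not called after adjustment) below it.

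Ratios compare 2 members within a library, and a factor common to the library changes them little. A change in the mix of cells is not such a factor and can change them, and its part here was not tested. In CD8 cells the ratio of Gfpt1 to Uap1 TPM was 0.295, 0.296 and 0.181 in controls and 0.628, 0.539 and 0.495 with mannose. The ratio of Pmm1 to Pmm2 was 0.279, 0.311 and 0.201 in controls and 0.589, 0.535 and 0.441 with mannose. The ratio of Mpi, which leads to glycolysis, to Pmm2, which leads to GDP-mannose, was 0.250, 0.212 and 0.212 in controls and 0.312, 0.335 and 0.323 with mannose. These 3 ratios did not overlap between groups. On the log2(TPM + 1) scale the differences were 1.12, 0.94 and 0.50, each with p = 0.1 in a 2-sided exact permutation test. That is the smallest p that 3 against 3 allows, and it was 0.222 adjusted over the 8 ratio tests. With like pairs averaged the adjusted p was 0.533. That test was of 2 against 2, which cannot give a p as small as 0.1, so it cannot show whether the differences weaken. Gmppa to Gmppb differed by 0.33 (exact p = 0.3). In tumours the ratio of Pmm1 to Pmm2 differed by -0.38 (exact p = 0.111, adjusted 0.222) and that of Gfpt1 to Uap1 by -0.02 (exact p = 0.952); all 4 tumour ratios overlapped between groups.

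**Figure D4:**
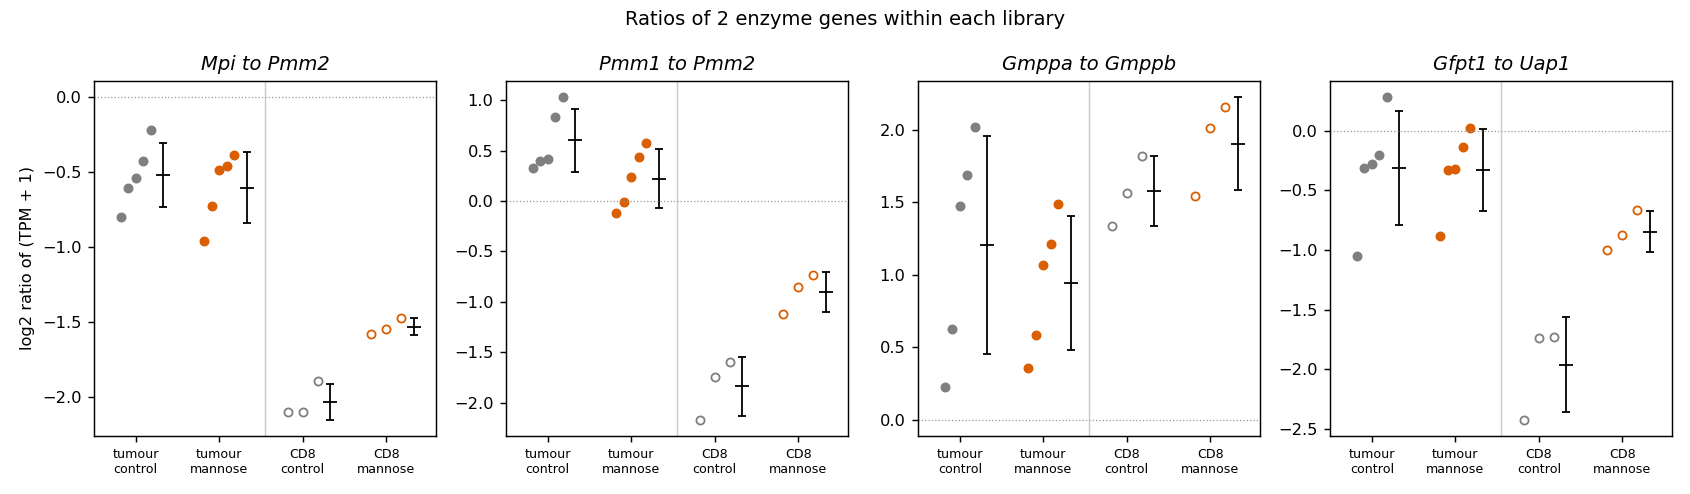
Log2 ratio, on the log2(TPM + 1) scale, of 4 pairs of members in each library, with 1 point per library and a bar at the group mean with its SD. In CD8 cells the groups separate for Mpi to Pmm2, Pmm1 to Pmm2 and Gfpt1 to Uap1 and overlap for Gmppa to Gmppb; in tumours all 4 overlap.

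Tumour and CD8 tables were normalized separately, so levels across them are descriptions with no test. TPM is a level per transcript length, which allows members to be ordered within a group. In CD8 controls the order by mean was Uap1 (126 TPM), Gmppa (61.1), Pmm2 (36.2), Gfpt1 (31.6), Gmppb (19.8), Gmds (14.5), Gnpnat1 (13.03), Pmm1 (9.55), Pgm3 (9.47) and Mpi (8.14). The neighbours whose ranges overlapped were Gmds with Gnpnat1, Pmm1 with Pgm3, and Pgm3 with Mpi. In CD8 mannose libraries Uap1 (85.5 TPM) and Gmppa (50.4) again led, with Gfpt1 (47.0) now above Pmm2 (28.7). Control tumours ran from Gmppa (34.7 TPM), Uap1 (32.7), Pmm1 (29.7) and Gfpt1 (27.7) down to Gnpnat1 (9.28) and Gmds (2.91), and only Gmds stood clear of its neighbour. Mannose tumours began with Uap1 (37.2 TPM), which there stood clear of Gmppa (31.1), and ended with Gmds (2.88), which again stood clear of Gnpnat1.

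All 6 CD8 libraries lay above all 10 tumour libraries for Gmppa, Gmds, Gnpnat1 and Uap1, and below them for Pmm1; the other 5 members overlapped. Mean TPM in CD8 controls was 4.97 times that in control tumours for Gmds, 3.84 times for Uap1 and 0.322 times for Pmm1. Mannose means in CD8 cells lay between the CD8 control and control tumour means for 7 members, the exceptions being Gmppb, Gfpt1 and Gnpnat1. For these 7 the CD8 mannose mean was thus nearer to the control tumour mean than the CD8 control mean was. How many of all genes lay between in this way was not computed, so the count of 7 is a description only. Of the 7, Mpi, Gmppa and Pgm3 had CD8 groups that overlapped. Carcinoma markers were higher in the CD8 mannose libraries, as given above. Whether tumour RNA has a part in the levels of these 7 was not tested. Gfpt1, at 47.0 TPM, was higher than in CD8 controls (31.6 TPM) and control tumours (27.7 TPM) alike.

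The wider pathway was described with 28 other genes of hexose entry, hexosamine turnover, fucose and dolichol-phosphate-mannose synthesis. In tumours limma called 0 of the 28, beside 0% of all genes tested, and 2 had an unadjusted p under 0.05, beside 6.23%. The median log2 difference was 0.04, beside 0.12 over all genes, so these counts are not a result about the pathway. Among the 28, the smallest p values in tumours were those of Fut8, Gnpda2 and Uap1l1, all at an adjusted p of 0.754 (limma). Fut8, the core fucosyltransferase, was at 57.3 ± 6.98 TPM in control and 74.7 ± 7.64 TPM with mannose (SD, n = 5), a log2 difference of 0.38. Gnpda2 and Uap1l1 differed by 0.41 and -0.28.

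In CD8 cells 9 of the 28 passed, 6 higher and 3 lower, and 19 did not, with a median of 0.13; a share near the 34.9% of all genes called (23.2% higher, 11.7% lower) is not a result about the pathway. With like pairs averaged Fut8 and Hk3 passed. Fut8, which uses GDP-fucose to modify N-glycans, was at 27.5 ± 7.14 TPM in controls and 65.4 ± 4.69 TPM with mannose (SD, n = 3), a log2 difference of 1.25 (adjusted p = 0.00410, limma) that was called in every alternative run. The glucose transporter Slc2a1, which can also carry mannose, rose by 0.43 (adjusted p = 0.00662), and the N-acetylglucosamine kinase Nagk by 0.63 (0.0124). Pofut1, which fucosylates Notch, rose by 0.57 (0.0179), Gfus, which completes GDP-fucose after Gmds, by 0.33 (0.0331), and Ogt, which attaches O-GlcNAc, by 0.40 (0.0490). Leaving out 1 library took Nagk (0.0504 without mannose 2), Pofut1 (0.0627 without mannose 1, 0.0627 without mannose 2), Gfus (0.112 without control 2, 0.0924 without control 3, 0.0921 without mannose 1, 0.0830 without mannose 2, 0.0541 without mannose 3) and Ogt (0.0785 without control 1, 0.0742 without control 2, 0.122 without control 3, 0.143 without mannose 2, 0.0994 without mannose 3) past the threshold. With like pairs averaged the adjusted p was 0.0771 for Slc2a1, 0.0835 for Nagk, 0.0979 for Pofut1, 0.124 for Gfus and 0.114 for Ogt. With all 16 libraries in 1 fit it was 0.248 for Slc2a1, 0.0973 for Pofut1 and 0.306 for Ogt, and with median-ratio scaling 0.0638 for Gfus and 0.0562 for Ogt. Ogt was also lost with a pseudocount of 0.1 (0.0514), no filter (0.0940), a mean of at least 5 TPM (0.0514) and the replicate block (0.0845).

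Hk3, a hexokinase abundant in myeloid cells, fell from 45.7 ± 1.29 to 7.57 ± 2.27 TPM (SD, n = 3), a log2 difference of -2.48 (adjusted p = 3.75e-04, limma) that was called in every alternative run. Gnpda1, which returns glucosamine-6-phosphate to fructose-6-phosphate against Gfpt1, fell by 0.69 (adjusted p = 0.00288), and the deacetylase Amdhd2 by 0.53 (0.00996). With T cell marker scaling these were -0.15 (0.646) and 0.0012 (0.997); with like pairs averaged the adjusted p was 0.0501 and 0.0912, and for Gnpda1 it was 0.0516 with all 16 libraries in 1 fit. Macrophage markers fell in the same libraries, as given above; their part in these 3 was not tested. Of the 28, the difference between tissues was called higher for 2, Fut8 (0.87, adjusted p = 0.00995, limma) and Nagk (0.60, 0.0116). It was called lower for 1, Hk3 (-3.00, 0.00303). Over all genes tested 11% were called higher and 7.64% lower, so these counts are not a result about the pathway. For this contrast the 3 genes were not followed one by one in the alternative runs.

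**Figure D5:**
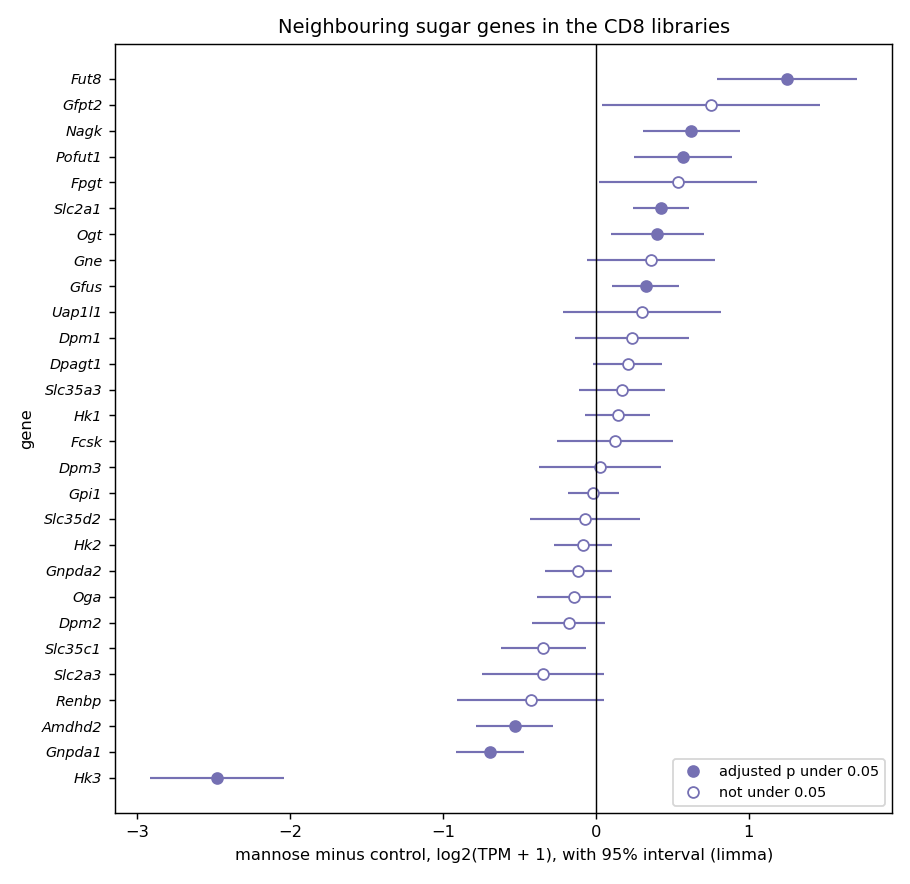
Log2 difference, mannose minus control, in CD8 cells for the 28 genes of the wider pathway, with 95% intervals from limma. Fut8 (1.25) is the highest and Hk3 (-2.48) the lowest.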

How the data were processed

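The submitters deposited 1 table per library. The values are TPM, as the sums of each deposited table show; the authors' steps before them are known only from the submitters' processing notes, which name fastp, HISAT, RSEM and GRCm39 with no versions or roles. Duplicate symbols were summed. Tumours (5 against 5) and CD8 cells (3 against 3) were fitted apart with limma 3.58.1 (trend) in R 4.3.3 on log2(TPM + 1), over genes at 1 TPM or more in 5 tumour or 3 CD8 libraries, with Benjamini-Hochberg adjustment over all genes tested and a threshold of 0.05. Fold changes on this scale understate those of low genes. The difference between tissues was fitted over 16 libraries and the symbols in both tables, at 1 TPM or more in 3 libraries. Ratios used 2-sided exact permutation tests (numpy 2.4.6), adjusted over 8 tests. All 10 members are named, with up to 6 called genes per direction of the 28-gene pathway list, or otherwise the 3 with the smallest p, and the 5 genes most like Mpi. Members and lists were chosen with earlier results of these data known. The code was tested on simulated data. Alternatives changed the pseudocount, filter, normalization, weights, block and libraries. Depth cannot be had from TPM, so its precision is unknown.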

Additional observations from a re-analysis of the deposited data

Results flagged for a closer look

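Members whose mannose effect differed between CD8 cells and tumours by a test of the difference itself were Pmm1 and Uap1. For Pmm1 the CD8 effect minus the tumour effect was 0.81 on the log2 scale (adjusted p = 0.0162, limma); the mean was higher with mannose in CD8 cells (9.55 to 14.9 TPM) and not in tumours (29.7 to 25.7 TPM). For Uap1 it was -0.73 (adjusted p = 0.00890, limma), with means of 126 and 85.5 TPM in CD8 control and mannose libraries and of 32.7 and 37.2 TPM in tumours. Pmm1 was not called without CD8 control 3 (adjusted p = 0.0549, limma) or CD8 mannose 1 (0.0618). With T cell marker scaling the value for Uap1 was -0.18 (adjusted p = 0.586, limma). No explanation was tested for either gene.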

How the results depend on the processing

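Among CD8 cells, limma called 5 members, beside 34.9% of all genes tested. It called 2 with no filter on low values (14.8% of all genes), 8 with array weights (60.4%) and 2 with all 16 libraries in 1 fit (25.8%). It called 0 with like pairs averaged (11.4%), 2 with T cell marker scaling (31.2%) and 1 to 4 without any 1 library (19.1% to 41.4%). Of the pathway list it called 9, beside the same shares of all genes. This was 18 with array weights, 5 with all 16 libraries in 1 fit, 2 with like pairs averaged and 5 to 11 without any 1 library. The difference between tissues was called for 2 members, beside 18.7% of all genes. This was 4 with array weights (40.8% of all genes), 1 with T cell marker scaling (23%) and 1 to 3 without any 1 library (11.9% to 25.9%). The members' median in CD8 cells was -0.08, beside 0.09 over all genes. It was -0.19 with quantile normalization (all genes -0.03), -0.16 with median-ratio scaling (0.01) and 0.45 with T cell marker scaling (0.59). Without any 1 library it was -0.14 to -0.03. For the difference between tissues the members' median was 0.46 with T cell marker scaling, beside 0.47 over all genes. Causes of these changes were not tested.

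Signs turned as follows, in log2 differences. In tumours, quantile normalization gave Mpi -0.060, Gmppb -0.027, Gnpnat1 -0.12 and Pgm3 -0.045; median-ratio scaling gave Mpi -0.0175 and Gnpnat1 -0.053; array weights gave Gfpt1 -0.0046; and leaving out control 1 and mannose 3 together gave Pmm2 -0.026, Gmppb -0.10 and Gfpt1 -0.12. Without any 1 library the tumour differences ranged from -0.0115 to 0.23 for Mpi, -0.019 to 0.31 for Gmppb, -0.26 to 0.10 for Gmds, -0.10 to 0.31 for Gfpt1 and -0.004 to 0.19 for Pgm3, the tumour ratio of Gfpt1 to Uap1 from -0.20 to 0.13 and that of Mpi to Pmm2 from -0.16 to 0.0034. In CD8 cells, quantile normalization gave Mpi -0.053 and Pgm3 -0.089, and T cell marker scaling gave Pmm2 0.21, Gmppa 0.28, Uap1 0.003 and Amdhd2 0.0012. For the difference between tissues, Pgm3 was -0.043 with quantile normalization, -0.0027 with median-ratio scaling, -0.052 with array weights and -0.0076 with like pairs averaged; Mpi was -0.10 with array weights; T cell marker scaling gave Pmm2 0.033 and Gmppa 0.42; and without any 1 library Mpi ranged from -0.062 to 0.18 and Pgm3 from -0.075 to 0.12. None of the reversed values was called.

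Same-numbered libraries were not shown to be paired: their deviations correlated at -0.63 to 0.33 in tumours and at 0.10 to 0.25 in CD8 cells, and 4 of 10 tumour and 4 of 6 CD8 libraries correlated best with their own number. With the replicate number as a block, limma called 2 members higher and 2 lower in CD8 cells (Gmppb had an adjusted p of 0.0546), 0 in tumours and 2 for the difference between tissues. The shares of all genes called were then 33.9%, 0% and 16.1%. Read depth was not known, so the limit it sets cannot be given.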

Other observations

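Over the 16 libraries, as deviations of log2(TPM + 1) from the mean of each tissue and treatment group, the genes most like Mpi among 8812 were Kifc1 (r = 0.928), Uhrf1 (0.925), Ssbp3 (0.924), Gipc1 (0.922) and Entpd4 (0.919). Among 9 members (Gmds was not compared, as its tumour mean was under 5 TPM), Mpi with Pgm3 (r = 0.773), Gfpt1 with Pgm3 (0.754) and Pmm2 with Gfpt1 (0.649) were the most alike, and Gmppa with Gnpnat1 (-0.58) the least. These are descriptions over libraries that share depth and composition within a table, and like pairs of CD8 libraries count among the 16.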
